A study of Mus musculus with 2 samples.

Results

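Transcripts of 8 tight junction genes were compared between the epidermis of mice lacking the calcium-sensing receptor (CaSR, gene Casr) in keratinocytes and the epidermis of littermate controls. The genes were the claudins Cldn1, Cldn4, Cldn7 and Cldn8, occludin (Ocln), the junctional adhesion molecule F11r, and the zonula occludens scaffolds Tjp1 and Tjp3. They were chosen by symbol, after the array's annotation had been matched to current RefSeq symbols, and every probe of each was taken, which gave 8 of the 18036 genes and 10 of the 25697 probes on the array. Of the 8, 6 were above background.

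The knockout (KO) mice carried floxed CaSR alleles (CaSR fl/fl) and the Cre recombinase under control of the keratin 14 (K14) promoter, which acts in the basal keratinocytes and their descendants and leaves the gene intact in the immune cells and melanocytes of the epidermis. The control (CON) mice carried the same floxed alleles, and no Cre is named for them. Both groups were C57BL6 at postnatal day 5, and back skin epidermis was lifted from the dermis with dispase. The RNA of 3 mice was pooled per group and read on 1 bead array (Illumina), so each group was 1 sample and no value carries a replicate error or a test. One sentence of the protocol names a VDR KO group, whereas the titles and genotypes of both samples name CaSR, and those were followed.

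Tight junctions seal the space between epithelial cells. Claudins are membrane proteins whose outer loops pair across neighbouring cells and form the sealing strands, occludin joins those strands, junctional adhesion molecules are immunoglobulin-type adhesion proteins that help to place the junction, and the ZO scaffolds tie the membrane proteins to actin. In the epidermis the sealing junctions lie in the granular layer, just below the cornified layer. Extracellular calcium drives keratinocytes in culture to assemble cell junctions and to differentiate, and CaSR is a receptor for that ion.

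The promoters of Cldn1 and Cldn4 are shown because these were the claudins above background and both had lower signals in KO epidermis. The 250 bases before the start of each gene, from RefSeq, are given 5′ to 3′ in the direction of transcription (build GRCm38.p6, chr16:26371840-26372089 on the minus strand for Cldn1 and chr5:134946935-134947184 on the minus strand for Cldn4). Capitals mark matches to the motifs described next.
Cldn1: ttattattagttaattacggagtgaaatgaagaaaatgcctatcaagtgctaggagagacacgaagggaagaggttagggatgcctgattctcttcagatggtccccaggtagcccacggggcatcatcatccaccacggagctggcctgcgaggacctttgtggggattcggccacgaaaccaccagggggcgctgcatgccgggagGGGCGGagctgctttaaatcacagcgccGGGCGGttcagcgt
Cldn4: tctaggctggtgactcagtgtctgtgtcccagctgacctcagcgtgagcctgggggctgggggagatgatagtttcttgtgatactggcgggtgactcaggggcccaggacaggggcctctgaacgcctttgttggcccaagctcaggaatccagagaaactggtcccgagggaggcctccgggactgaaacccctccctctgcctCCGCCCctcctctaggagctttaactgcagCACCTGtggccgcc

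The windows were searched on both strands for the TATA box TATAAA, for the GC box GGGCGG bound by Sp-type factors, for the E-box CAGGTG to which Snail-type repressors of epithelial genes bind, and for the grainyhead site AACCGGTT. The Cldn1 window held 2 GC boxes, beginning 42 and 14 bases before the start. The Cldn4 window held 1 GC box at 44 bases, read as CCGCCC on the printed strand, and 1 E-box at 14 bases, read as CACCTG, and the matches did not overlap. For comparison 32851 RefSeq windows of this length were searched. Those of 1 chromosome, which holds none of the 8 genes, were left out. Of the windows searched, 32.7% held a GC box, 17.2% an E-box, 12.4% a TATA box and 0.116% the grainyhead site. Of the 8 genes 7 had an entry, and none of their windows held a TATA box or a grainyhead match. The window of Tjp1 held 2 GC boxes and no E-box, and that of F11r 1 GC box and 1 E-box. Both windows of Ocln held a GC box, and 1 of them also held 2 E-boxes. Both windows of Tjp3 held an E-box and no GC box. Of the windows of Cldn7, 1 of 2 held a GC box and E-boxes. The windows of Cldn1 and Cldn4 were 55.6% and 62% G and C, against a median of 52.4% over the windows searched. These matches describe letters and not binding.

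Cldn4 had the lowest KO over control ratio of the detected members. The authors' normalised signal, a linear brightness without background subtraction, was 3583 in the KO sample and 4179 in the control sample for Cldn4, a barrier-forming claudin of the granular layer. The KO signal was 1.17-fold lower, a log2 ratio of -0.22. Before normalisation the Cldn4 signals were 5011 in the KO sample and 5572 in the control sample, so the KO sample was also the dimmer one there. In a bulk sample of this kind, fewer cells of a type and less RNA per cell cannot be told apart. Different probes of a gene on these arrays gave log2 ratios with an SD of 0.11 (over 1840 genes with more than 1 detected probe), which is the only measure of error available and covers the array and not the animals. The Cldn4 ratio lay at -1.98 of these SDs, which pool probes of all signal strengths. The log2 ratios themselves had an SD of 0.15 over all detected genes. In the tenth of genes with the strongest signals, which holds Cldn4, their SD was 0.17. Of the 8564 genes detected in at least 1 sample, whose median log2 ratio was 0.01, 427 (4.99%) had a ratio as low as that of Cldn4 or lower. Among the 857 genes of like signal strength, 60 did.

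Cldn1, the claudin whose loss in mice lets water escape through the epidermis after birth, had a signal of 2819 in the KO sample and 3068 in the control sample. The KO signal was 1.09-fold lower (log2 ratio -0.12), or -1.09 probe SDs. Of all genes 1347 (15.7%) had a ratio as low or lower. Both claudins above background were thus lower in the KO sample, Cldn4 by more than Cldn1, and the gap between their ratios was smaller than 1 probe SD. Before normalisation Cldn1 read 3910 in the KO sample and 3976 in the control sample, a log2 ratio of -0.02 where the median over all genes was 0.09.

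Cldn7 and Cldn8 were not above background in either sample. The Cldn7 probe, for a claudin found in many epithelia that binds EpCAM, read 145 in the KO sample and 158 in the control sample. Its detection p-values of 0.0802 in the KO sample and 0.0263 in the control sample missed the limit of 0.01 (detection p-values rank a probe against negative control beads). The Cldn8 probes, for a claudin of the distal nephron in the kidney, read 129 and 126 in the KO sample and 130.1 and 119.9 in the control sample, with detection p-values between 0.564 and 0.952. No fold is given for either gene.

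Occludin and F11r stood on the other side of 0. Ocln, a strand protein of the MARVEL family that modifies the strands, had a signal of 286 in the KO sample and 279.6 in the control sample (log2 ratio 0.03). F11r, which encodes junctional adhesion molecule A and binds the polarity protein Par3, had a signal of 288 in the KO sample and 276 in the control sample (log2 ratio 0.06, 1.05-fold higher). Both differences were smaller than 1 probe SD. For F11r 2684 genes (31.3%), and for Ocln 3553 genes (41.5%), had a ratio as high or higher.

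Both ZO scaffolds had ratios below 0, that of Tjp1 by less than 1 probe SD. Tjp1, which encodes ZO-1, the PDZ-domain scaffold that binds claudins, occludin and actin, had a signal of 187 in the KO sample and 196 in the control sample (log2 ratio -0.07, or -0.598 probe SDs). Tjp3, which encodes ZO-3, was read by 2 probes. The brighter Tjp3 probe had a signal of 241 in the KO sample and 264 in the control sample (log2 ratio -0.13), and the dimmer one 206 in the KO sample and 222.5 in the control sample (log2 ratio -0.11). The Tjp3 probes thus differed from each other by far less than the spread usual between probes of a gene. Of all genes, 1236 (14.4%) had a ratio as low as that of Tjp3 or lower, and 2366 (27.6%) as low as that of Tjp1 or lower.

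**Figure D1:**
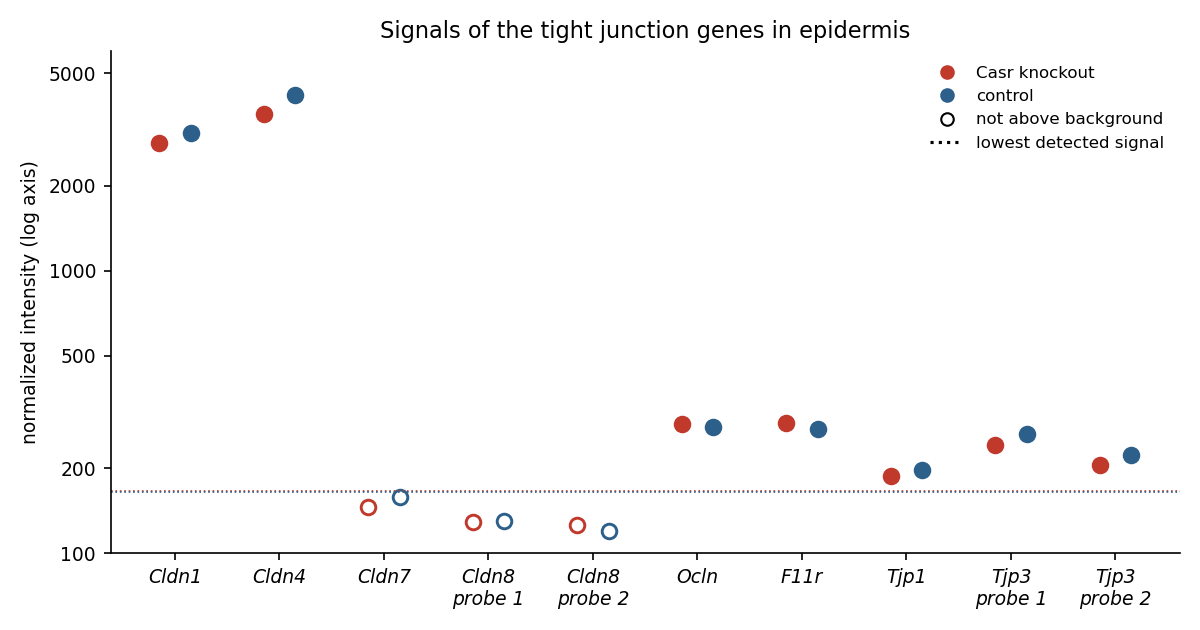
Normalised signal (log axis) of each probe of the 8 tight junction genes, with the KO sample in red on the left and the control sample in blue on the right. Hollow points were not above background, and the dotted lines mark the lowest signal of a detected probe, 165.9 in the KO sample and 164.9 in the control sample. The KO point lies below the control point for Cldn4, Cldn1, Tjp1 and both Tjp3 probes, and above it for Ocln and F11r.

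Ordered by log2 ratio, the detected genes ran from Cldn4 (-0.22) through Tjp3 (-0.13), Cldn1 (-0.12), Tjp1 (-0.07) and Ocln (0.03) to F11r (0.06). Each neighbouring pair was separated by less than 1 probe SD, the widest gap being that between Tjp1 and Ocln at 0.10 (0.889 SD). The ends of the order, Cldn4 and F11r, were 0.29 apart (2.56 SDs). These ends were picked by the ranking and the SD is that of a single ratio, so their gap is no measure of separation. Of the 6 detected genes 4 were below 0, against 47.5% of all genes, and their median log2 ratio was -0.09. At least 1.2-fold lower were 0 of 6, against 2.95% of all genes, and at least 1.2-fold higher 0 of 6, against 2.91%. The corresponding shares at 1.5-fold were 0.234% lower and 0.187% higher, again with 0 of 6 genes. With 1 sample in each group, a pattern across samples is a single ratio, so no gene was chosen for its likeness to these.

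**Figure D2:**
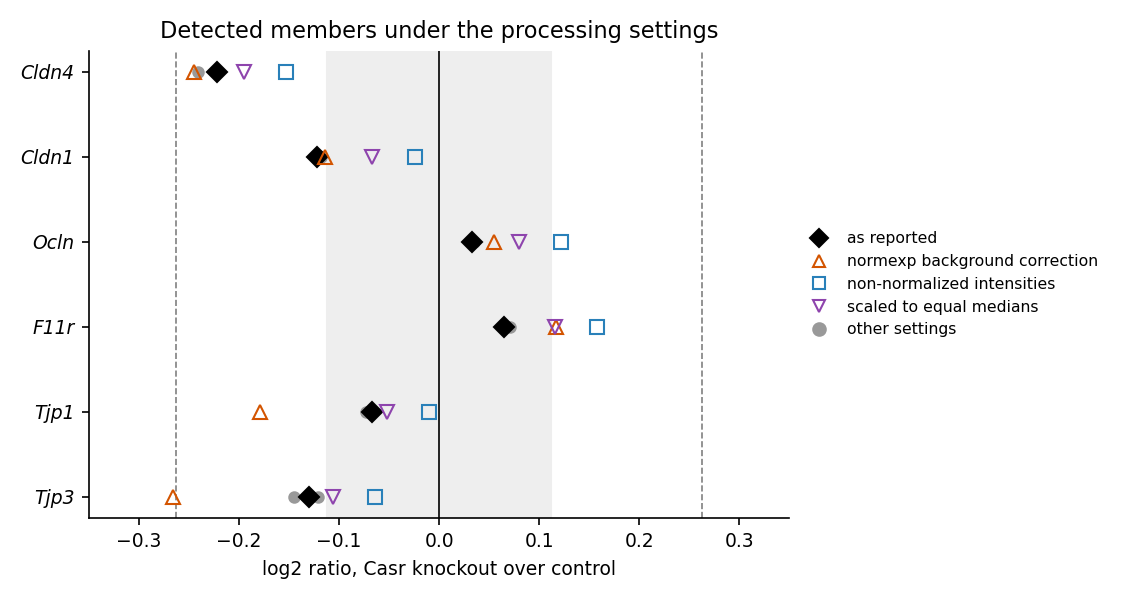
Log2 ratio of KO over control for the 6 detected genes under the main processing and its alternatives, with the grey band showing 1 probe SD (0.11) either side of 0 and dashed lines at 1.2-fold. Cldn4, Cldn1, Tjp1 and Tjp3 stayed below 0 and Ocln and F11r above 0 in each setting shown. Settings that kept the deposited normalised signals could not move the genes with 1 probe.

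The genes' place among all measured genes was read with the signal strength beside it. Cldn1 and Cldn4 were bright, and the other 4 lay near the lower end of the detected signals, where a background that was not subtracted draws log2 ratios towards 0. With background correction by normexp and quantile normalisation, Tjp3 had a signal of 147 in the KO sample and 177 in the control sample, a log2 ratio of -0.27 and so at least 1.2-fold lower, as were 10.2% of all genes under that setting. Under the same setting Tjp1 had 80.8 in the KO sample and 91.5 in the control sample (log2 ratio -0.18). Cldn4 was 4705 in the KO sample and 5574 in the control sample, 1.18-fold lower, close to its main value. Ocln went from 0.03 to 0.05 and F11r from 0.06 to 0.12. The ratios of Tjp1 and Tjp3 moved by more than that of Cldn4 under this setting, in which background correction and normalisation changed together.

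**Figure D3:**
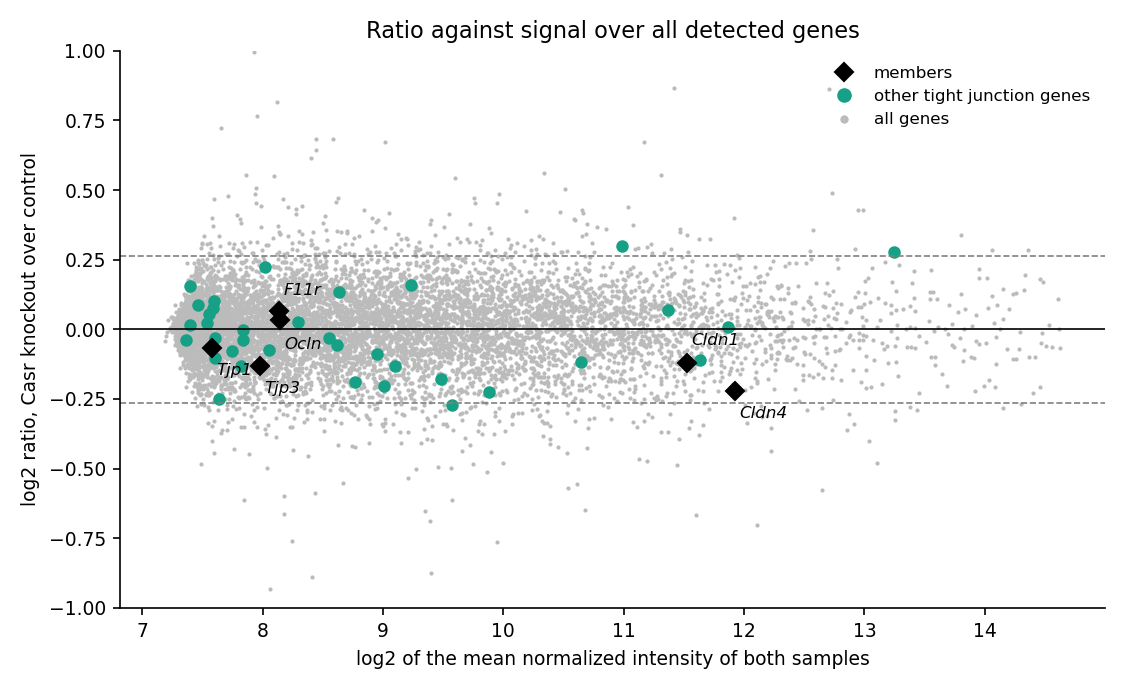
Log2 ratio of KO over control against log2 mean normalised signal for the 8564 detected genes (grey), the 6 detected genes described here (black diamonds) and the other tight junction genes (green); 9 genes lay outside the axis limits of 1. The 6 genes lie within the main cloud, with Cldn1 and Cldn4 to the right of the others.

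Other tight junction genes were taken from lists of 74 genes, of which 60 were on the array and 35 were detected. Of the 35, 20 were below 0 and 15 above, with a median log2 ratio of -0.03. Ybx3 was the 1 gene at least 1.2-fold lower, and 2, Cxadr among them, were at least 1.2-fold higher. The 1 lower and 2 higher of 35 stand beside 2.95% and 2.91% of all genes.

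Among the other claudins 6 of 17 on the array were detected and 4 were below 0. Cldn23 had a signal of 1536 in the KO sample and 1665 in the control sample (log2 ratio -0.12). Cldn9 had 188 in the KO sample and 202 in the control sample (log2 ratio -0.10). Cldn3, which lies next to Cldn4 in the genome, had 371 in the KO sample and 380.0 in the control sample (log2 ratio -0.03). It thus differed less than Cldn4 did, but its signal was far weaker, so the ratios are not compared on equal terms. Cldn10 had 415 in the KO sample and 378 in the control sample (log2 ratio 0.13), but its 3 detected probes ran from -0.16 to 0.13.

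The partners that bind the members differed among themselves. Ybx3, a transcription factor that binds the ZO-1 scaffold, had a signal of 689 in the KO sample and 831 in the control sample (1.21-fold lower), while its other probe read 465 in both. Patj, a scaffold of the Crumbs complex, had 279 in the KO sample and 239 in the control sample, a log2 ratio of 0.22, while another probe, not above background in the KO sample, gave a bound of -0.16. Pard3, which encodes the F11r partner Par3, had 182 in the KO sample and 216 in the control sample (log2 ratio -0.25), with another detected probe at -0.09 and 1, not above background in the control sample, giving a bound of 0.05. Pard6g had 2705 in the KO sample and 2577 in the control sample (log2 ratio 0.07), and Prkcz 209 in the KO sample and 220.3 in the control sample (log2 ratio -0.08). The probes of Ybx3, Patj and Pard3 thus spread more widely than those of Tjp3.

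At tricellular contacts, where 3 cells meet, the lipolysis-stimulated receptor Lsr had a signal of 478 in the KO sample and 550.1 in the control sample (log2 ratio -0.20, 1.15-fold lower). Ildr1, of the same family, had 191 in the KO sample and 184 in the control sample (log2 ratio 0.05, but -0.0028 by the mean over its probes), and Marveld3, a relative of occludin, 229 in both. Among these genes Lsr was farthest from 0.

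Proteases that act on tight junctions and an adhesion protein gave values in both directions. Prss8, a membrane-anchored protease needed for epidermal tight junctions in mice, had a signal of 871 in the KO sample and 1018 in the control sample (log2 ratio -0.23), and its other probe gave -0.22. Its inhibitor Spint1 had 406 in the KO sample and 463 in the control sample (log2 ratio -0.19). Cxadr, an immunoglobulin-type junction protein, had 2243 in the KO sample and 1823 in the control sample (1.23-fold higher), its 3 probes running from -0.02 to 0.30 on the log2 scale. Prss8 and Spint1 thus had lower signals in the KO sample and Cxadr a higher one.

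**Figure D4:**
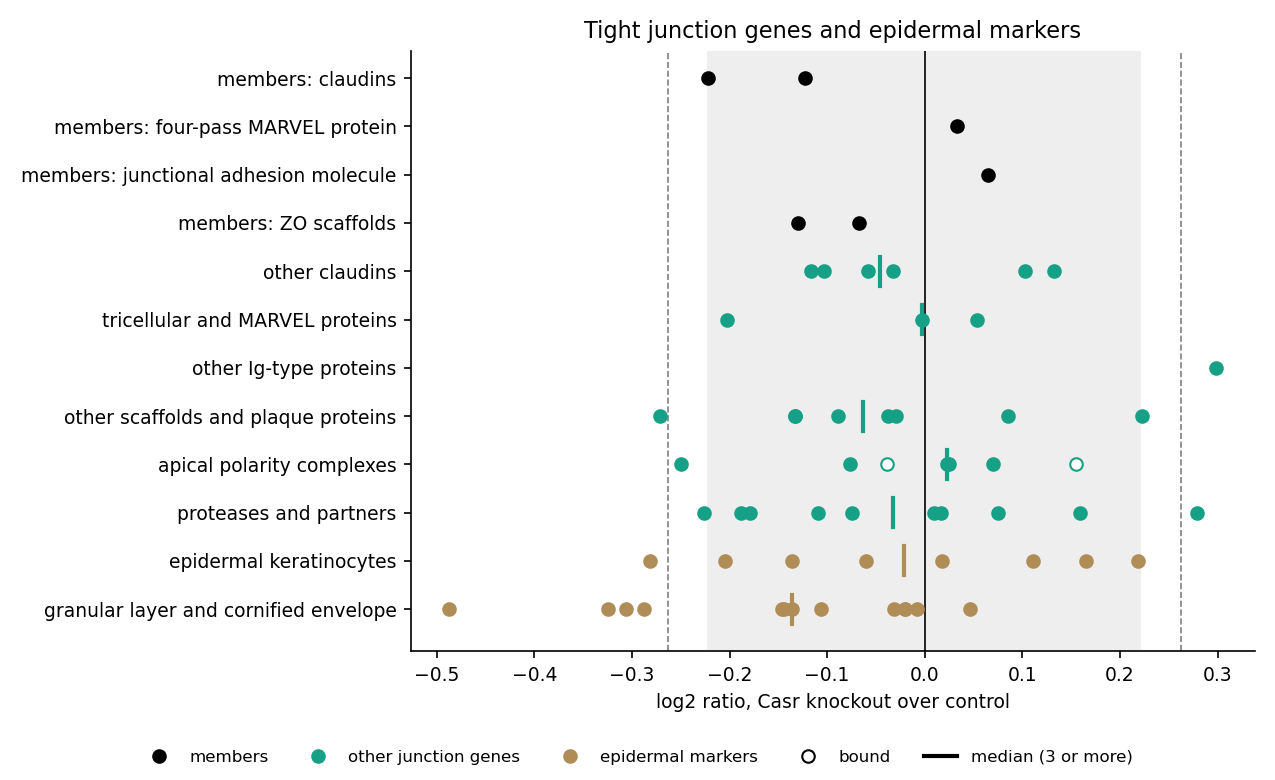
Log2 ratio of KO over control for the 6 detected genes by group, the other tight junction lists and the keratinocyte layer markers, with bars at the medians of lists of 3 or more, open points for bounds, a grey band from the 5th to the 95th percentile of all genes (-0.22 to 0.22) and dashed lines at 1.2-fold. Most tight junction genes lie within the band, with Ybx3, Pard3 and Prss8 below it, Cldn4 at its lower edge and Cxadr and Patj among those above it.

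Cell type markers were read beside these values. Of 13 granular layer and cornified envelope genes 12 were below 0, against 47.5% of all genes, and 4 were at least 1.2-fold lower, against 2.95%. The median of these 13 genes was -0.14, and their summed signals were 94630.1 in the KO sample and 104600 in the control sample. Cldn4 (-0.22) lay below that median and Cldn1 (-0.12) and Tjp3 (-0.13) beside it, while Tjp1 (-0.07), Ocln (0.03) and F11r (0.06) lay above it. The part of the granular genes in these ratios was not tested. Of 9 general epidermal keratinocyte markers 8 were detected, 4 below and 4 above 0, with a median of -0.02. The remaining marker, Dsp, had no probe under its own name. Its synonym led to Dspp, another gene, so Dsp was not read. Of those expressed in basal cells, Krt5 (log2 ratio -0.28), Krt14 (log2 ratio -0.20) and Krt15 (log2 ratio -0.06) were below 0 and Trp63 (log2 ratio 0.17) above it. The spinous markers Krt1 (log2 ratio 0.11) and Krt10 (log2 ratio 0.22) were above 0. All 4 detected T cell markers were below 0 (summed 2551 in the KO sample and 2795 in the control sample). By the brightest probe, all 6 detected Langerhans and myeloid markers were above 0 (summed 12570.4 in the KO sample and 11857 in the control sample). Other detected probes lay below 0 for Csf1r (log2 ratio -0.15), Cd74 (-0.06), H2-Ab1 (-0.05) and Cd207 (-0.02). Adgre1 was a bound, as its brightest probe was not above background in the control sample. Of 6 detected hair follicle genes 4 were below 0 and 2 above, with a median of -0.21. Their summed signals were 22058 in the KO sample and 26693 in the control sample. The 2 above 0 were Hoxc13 (log2 ratio 0.35) and Dsg4 (0.17), the latter a bound, not above background in the control sample. The 3 detected erythroid markers were all below 0 (summed 1068 in the KO sample and 1345 in the control sample). Among them Alas2 was a bound, not above background in the KO sample. Of 8 endothelial markers 1 was detected, of 9 fibroblast markers 5 and of 6 simple epithelium and Merkel cell markers 1. The part of these cells in the values was not tested.

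Casr, the targeted gene, had 1 probe, which read 148 in the KO sample and 123 in the control sample and was above background in neither (detection p-values 0.0639 in the KO sample and 0.891 in the control sample). It gave no check of the genotypes. Casr, Cldn1 and Cldn8 lie on the same mouse chromosome, 16, with the junction gene Ildr1 at 2 gene places from Casr. Next to Cldn1 lie P3h2 (log2 ratio -0.08) and Cldn16, next to Ocln Marveld2, and next to Cldn8 Cldn17, and the 3 junction genes among these neighbours were not above background.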

How the data were processed

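Back skin epidermis of 1 pooled KO sample and 1 pooled control sample was read on Illumina bead arrays of 25697 probes. Each probe's linear intensity was deposited by the authors before and after normalisation, and the deposited detection p-value accompanies it. The submitters' processing notes name GenomeStudio 2011.1. How the intensities were normalised is not stated in those notes or the labels. The deposited normalised intensities have equal medians (148.9 in both samples, against 166.1 in the KO sample and 161.3 in the control sample before), and background was not subtracted (lowest value 106.2 in both).

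Signals below a floor, the lowest signal among detected probes (p-value up to 0.01, 165.9 in the KO sample, 164.9 in the control sample), were raised to it and log2 transformed. The brightest probe represented a gene, and ratios are KO over control. Of the probes 10802 (42.0%) were detected in the KO sample and 10888 (42.4%) in the control sample. Symbols came from RefSeq (GRCm38.p6) for 24358 probes and from the file for 1339. Promoters came from RefSeq, where 7 of the 8 genes had an entry.

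With 1 sample a group no test was made. The alternatives were the mean over probes, no floor, a detection limit of 0.05, no filter, detection in both samples, normexp with quantile normalisation (limma 3.58.1, offset 16), the intensities before normalisation as they stood and scaled to equal medians, loess centring (span 0.3), the series' value table and 1.5-fold. Other genes were named by rule: in each list the 3 with the largest absolute log2 ratio (of genes above background in KO and control), the brightest, and any whose bound passed 1.2-fold. A few genes picked by it are not reported here. Cldn3 was named, outside the rule, for its place beside Cldn4, and Krt15 and Trp63 were added after their values were seen. The members and lists were chosen with earlier results of these data known. Python 3.11.15, pandas 2.3.3 and R 4.3.3 were used.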

Additional observations from a re-analysis of the deposited data

How the results depend on the processing

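The counts of members below 0 and at least 1.2-fold higher, and their median log2 ratio, moved by at most 1.5 times, or 1 probe SD, under each alternative. Only normexp, loess centring and the intensities before normalisation, as they stood or scaled, changed the signals themselves. Under each of these Cldn4, Cldn1, Tjp3 and Tjp1 were below 0 and Ocln and F11r above 0. Cldn4 lay between -0.24 and -0.15 and Tjp3 between -0.27 and -0.06. The remaining alternatives could not change the ratio of a detected member with 1 probe, so its unchanged sign there carries no information. At least 1.2-fold lower were 0 members in the main processing and 1 (Tjp3) with normexp. Of the 35 other tight junction genes 1 was at least 1.2-fold lower in the main processing and 0 with the mean over probes. There were 6 with normexp, 0 with the intensities before normalisation, 0 when these were scaled to equal medians and 2 with loess centring. The shares of all genes, in the same order, were 2.95%, 2.66%, 10.2%, 1.26%, 2.03% and 3.53%. At least 1.2-fold higher were 2 in the main processing, 1 with the mean over probes, 4 with normexp, 4 before normalisation and 1 with loess centring. Here the shares of all genes were 2.91%, 2.36%, 10.5%, 10.9% and 3.58%. Below 0 were 20 in the main processing and 12 before normalisation, against 47.5% and 24.1% of all genes. In the main processing 3 passed 1.2-fold while 0 passed 1.5-fold. Cldn10 had a log2 ratio of 0.13 by its brightest probe and -0.04 by the mean over its probes. Pard3 had -0.25 and, with normexp, -0.65. The cause was not tested. No paired analysis was possible because each group was 1 sample. Weak signals limit the members other than Cldn1 and Cldn4.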
